A study of Rattus norvegicus with 23 samples.

Results

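Femoral RNA of rats with metabolic osteoporosis that had been given PYY3-36 was compared with femoral RNA of healthy rats, across all genes. The comparison used 8 of the 23 libraries of the series, 4 labelled MetOP PYY (A215, A216, A219 and A220) and 4 labelled healthy control (A387, A389, A390 and A392), chosen by their titles. All were polyadenylated RNA from whole femora of female Wistar rats, sequenced in bulk, and all carry the same batch label. MetOP is the metabolic osteoporosis model of the series, for which rats received a high-fat diet together with L-NAME (a blocker of nitric oxide synthases). The titles of the MetOP PYY libraries carry hfd, lfd, pyy, saline and LN, and those of the healthy libraries carry standard, saline and oLN. The labels do not explain lfd or oLN, so the diet at sampling and any L-NAME given to the healthy rats are not known here. The treatment labels of the 4 MetOP PYY libraries end in different numbers (PYY3-36, PYY3-37, PYY3-38 and PYY3-39), so their common treatment rests on their shared title. The labels give no age, dose or duration. The 5 MetOP saline libraries, from the model without a drug, are given beside the results. No label ties the libraries of a group to separate rats. The p-values therefore reflect how much libraries vary, which may be technical in part. For the main test of each gene, that spread was estimated from all 23 libraries of the series, in 5 groups.

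PYY3-36 is a shortened form of the gut hormone peptide YY, released after meals, and it acts mainly on the Y2 receptor of the neuropeptide Y family to lower food intake. Y receptors are also known in bone, where Y1 signalling in osteoblasts and Y2 signalling in the brain restrain bone formation in mice. A whole femur holds osteoblasts, osteocytes, osteoclasts, marrow blood cells, vessels, growth cartilage and adhering muscle, and its RNA mixes all of these. Fewer cells of a type and less RNA per cell cannot be told apart in such bulk libraries.

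Deposited counts summed to 22528900 to 37248700 in the MetOP PYY libraries and to 21318400 to 32183500 in the healthy ones. Mitochondrially encoded genes took 63.6% ± 7.82 (SD, n = 4) of the counts with PYY and 68.2% ± 10.98 (SD, n = 4) in healthy bone, a difference within the spread (exact permutation test, two-sided, p = 0.543). Markers of bone were present in every library: Col1a1, the main collagen of bone, lay between 62.1 and 2962 CPM (its counts relative to the TMM-scaled library total) with PYY and between 434 and 3331 in healthy bone. Skeletal muscle genes took 2.80% to 15.5% of the non-mitochondrial counts with PYY and 15.3% to 24.4% in healthy bone, and library A216 was lowest. Cartilage genes stood high in A216 and in healthy A392 only, with mean log2 CPM of 6.58 and 5.33 against at most 1.92 in the other 6 libraries. Replicate libraries within the 2 groups correlated at 0.773 to 0.921.

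Ddr2, Itpkb and Mga rose in PYY-treated MetOP femora over healthy femora, by 2.39, 2.41 and 1.53 on the log2 scale, with an adjusted p under 0.05 over 15271 tested genes (edgeR's quasi-likelihood test, Benjamini-Hochberg). That is 0.0196% of the genes tested, and no gene fell past the same threshold in this fit. Without adjustment, 1259 genes (8.24%) were higher and 717 (4.7%) lower at p under 0.05, where 764 would be expected by chance in both directions together. The 4 PYY libraries lay wholly above the 4 healthy ones for 742 genes (4.86%) and wholly below for 605 (3.96%). The log2 fold change was above 0 for 52.7% of tested genes.

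Ddr2 encodes discoidin domain receptor 2, a receptor tyrosine kinase that binds fibrillar collagen and is needed for normal bone growth (ENSRNOG00000002881, chromosome 13, 82195463 to 82317363, mRatBN7.2). Its level was 48.3, 29.2, 26.6 and 26.0 CPM in the 4 PYY libraries and 8.90, 3.34, 7.76 and 4.80 CPM in the 4 healthy ones. Every PYY library was well above every healthy one, and A215 was the highest. The means were 32.5 ± 10.6 and 6.20 ± 2.57 CPM (SD, n = 4 each), a log2 fold change of 2.39 ± 0.35 (SE; edgeR, adjusted p = 0.00393). In the MetOP saline libraries Ddr2 averaged 19.3 ± 6.19 CPM (SD, n = 5). The direct difference between PYY and MetOP saline was 0.75 ± 0.31 on the log2 scale and did not pass the test (edgeR, adjusted p = 0.941).

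Itpkb encodes a kinase that phosphorylates inositol trisphosphate and so ends its calcium-releasing signal (ENSRNOG00000002969, chromosome 13, 92069216 to 92162004). Its level was 8.495, 6.69, 6.59 and 4.06 CPM with PYY and 0.962, 1.18, 1.28 and 1.422 CPM in healthy bone, so the groups stood apart. The log2 fold change was 2.41 ± 0.35 (SE; edgeR, adjusted p = 0.00393). MetOP saline libraries lay between, at 3.65 ± 0.42 CPM (SD, n = 5). Mga encodes a DNA-binding partner of MAX that represses genes as part of a Polycomb complex (ENSRNOG00000006378, chromosome 3, 106851140 to 106941043). Its level was 11.9, 14.4, 10.1 and 13.7 CPM with PYY and 3.06, 4.48, 6.02 and 3.73 CPM in healthy bone, with no overlap. The log2 fold change was 1.53 ± 0.25 (SE; edgeR, adjusted p = 0.0106), and MetOP saline stood at 8.77 ± 0.69 CPM (SD, n = 5). For all 3 genes the MetOP saline mean thus lay between the other means. Against healthy bone, the MetOP saline log2 fold changes were 1.63 ± 0.33 for Ddr2, 1.59 ± 0.34 for Itpkb and 1.02 ± 0.24 for Mga, none past the test (edgeR, lowest adjusted p of the 3 = 0.146). The comparisons of each MetOP group with healthy bone share the 4 healthy libraries.

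These calls depended on the fit. With limma voom Ddr2 alone passed (adjusted p = 0.0245), while Itpkb and Mga did not (limma voom, adjusted p = 0.119 and 0.0864). With only the 8 libraries fitted none passed (edgeR, adjusted p = 0.164, 0.164 and 0.246), although the fold changes hardly moved (2.41, 2.42 and 1.54). DESeq2 called 399 genes, 308 higher and 91 lower, among them all 3. Without A220 the edgeR test called 59 genes, 51 higher and 8 lower, again including the 3. With the muscle list level as a covariate 3 genes passed. Ddr2 and Itpkb were higher, Mga was not among them (edgeR, adjusted p = 0.0702), and LOC100361933, named after its values were seen, was lower (log2 fold change -1.82 ± 0.32, SE; edgeR, adjusted p = 0.0434, against 0.0973 without the covariate). Mga was also lost without any 1 of the healthy libraries A387, A389 and A392 (edgeR, adjusted p = 0.0635, 0.0624 and 0.0959).

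**Figure D1:**
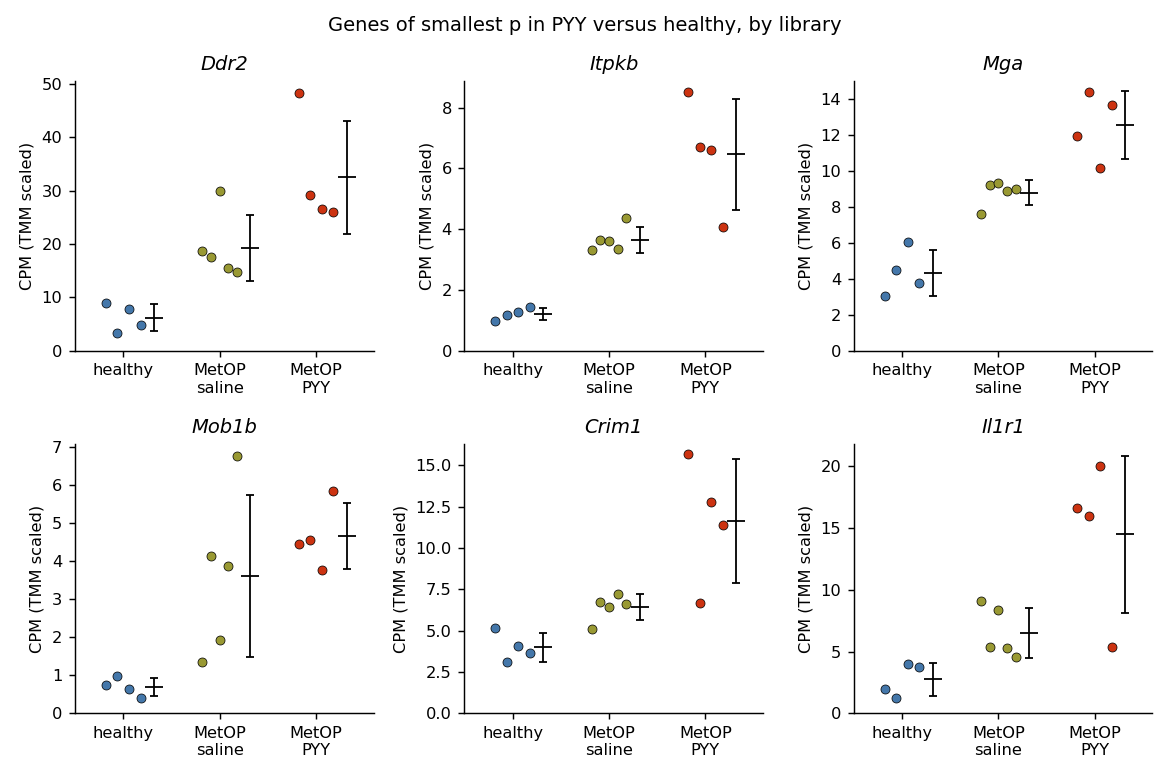
Level in CPM scaled by TMM (linear axes from 0) of the 6 genes of smallest p, one point per library, with the mean and SD of each group as a bar beside the points. Ddr2, Itpkb and Mga passed the test and their PYY points lie wholly above the healthy points, as they also do for Mob1b, Crim1 and Il1r1, which did not pass.

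Promoter sequences of the genes that passed are shown because they are the only single genes called. RefSeq (GRCr8, a later assembly than that of the counts) gave an entry for Itpkb and Mga but none for Ddr2, and the 250 bases before the start are printed 5′ to 3′ on the + strand, chr13:94600900-94601149 for Itpkb and chr3:127305125-127305374 for the first of 4 Mga entries. Capitals mark a match, on either strand, to 1 of 4 motifs. These were the GC box (GGGCGG), the CCAAT box (by its letters), the TATA box (searched as TATAAA) and the E-box of MYC and MAX proteins (searched as CACGTG).
Itpkb: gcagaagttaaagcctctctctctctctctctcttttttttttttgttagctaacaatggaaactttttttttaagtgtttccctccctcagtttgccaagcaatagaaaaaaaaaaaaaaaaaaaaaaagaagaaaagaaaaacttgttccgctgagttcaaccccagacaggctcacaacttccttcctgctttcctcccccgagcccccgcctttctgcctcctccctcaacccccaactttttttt
Mga: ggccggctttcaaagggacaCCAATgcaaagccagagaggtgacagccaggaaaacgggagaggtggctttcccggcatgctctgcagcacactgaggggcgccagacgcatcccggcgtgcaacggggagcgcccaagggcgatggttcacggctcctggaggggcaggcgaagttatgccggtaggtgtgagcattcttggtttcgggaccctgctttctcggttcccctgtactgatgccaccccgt
Mga held 1 CCAAT match, a motif found in 34.0% of 33469 promoter windows of this length. None of the 4 motifs was in the Itpkb window; the GC box was in 30.5%, the TATA box in 12.9% and the E-box in 5.59% of all windows.

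The next genes by p did not pass the threshold (edgeR, adjusted p = 0.0561 for each of Mob1b, Crim1, Il1r1, Kmt2e, Nktr, Mrtfb, Fcho2 and Trim44). Mob1b, a scaffold that activates the LATS kinases of the Hippo pathway, was at 4.45, 4.57, 3.78 and 5.86 CPM with PYY and 0.748, 0.973, 0.639 and 0.415 CPM in healthy bone. The 2 groups did not overlap, and MetOP saline ranged from 1.36 to 6.78 CPM. Il1r1, the receptor for interleukin 1, was at 16.6, 16.0, 20.0 and 5.37 CPM with PYY and 1.99, 1.27, 3.97 and 3.79 CPM in healthy bone; A220 was the PYY library nearest to healthy. Crim1, a membrane protein that binds bone morphogenetic proteins, averaged 11.6 ± 3.76 against 3.997 ± 0.875 CPM. Mrtfb, a coactivator of serum response factor, had 78, 25, 146 and 23 counts in the 4 PYY libraries and none in any healthy library. Its mean PYY level was at least 59.7-fold above the level that a floor of 3 counts over the healthy group would give. Fcho2, Trim44 and Arhgef12 stood as high in MetOP saline as with PYY: Fcho2 averaged 10.3 ± 1.89 CPM with PYY, 10.7 ± 3.56 in MetOP saline and 2.66 ± 1.08 in healthy bone. Their direct log2 differences between PYY and MetOP saline were -0.053 ± 0.352, -0.0026 ± 0.271 and 0.0045 ± 0.264 (SE).

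Among the lower genes, the smallest p belonged to RGD1564606, at 2.03 ± 0.67 against 9.80 ± 4.25 CPM, with the 4 PYY libraries below every healthy one (edgeR, adjusted p = 0.0651). Ifrd2 averaged 12.2 ± 4.51 against 29.4 ± 3.77 CPM. Most of the other lower genes of smallest p encode ribosomal proteins or copies of them, whose counts can be split between near-identical copies.

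The vessel wall was the clearest cell group with higher levels. Of 14 tested smooth muscle and pericyte genes, 11 had a positive log2 fold change, and the PYY libraries lay wholly above the healthy ones for 6 of the 14 (42.9%, against 4.86% of all genes), with a median of 1.15 against 0.05 over all genes. Des, a muscle intermediate filament shared with skeletal muscle, was the member wholly below. Rgs5, a pericyte regulator of G-protein signalling, was at 148, 141, 102 and 43.4 CPM with PYY and 22.1, 8.76, 14.5 and 8.41 CPM in healthy bone. Its log2 fold change of 3.01 ± 0.71 (SE) did not pass (edgeR, adjusted p = 0.0983), and MetOP saline stood near healthy bone at 23.3 ± 9.19 CPM. Acta2, smooth muscle actin, was at 89.3, 48.8, 149 and 47.4 CPM with PYY and 27.3, 13.6, 12.7 and 17.9 CPM in healthy bone. Mcam, an adhesion molecule of pericytes and endothelium, averaged 45.4 ± 14.1 against 14.9 ± 2.84 CPM. Leaving out any 1 of the 8 libraries kept the list's median between 1.08 and 1.415.

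Endothelial genes had a median of 0.75, with 18 of 19 above 0 and 11 at an unadjusted p under 0.05 (8.24% of all genes were higher at that p), but none with separate groups. Ptprb, a vascular phosphatase, was at 103, 87.4, 120 and 43.6 CPM with PYY against 47.1, 30.7, 32.7 and 41.9 CPM. Pecam1, the endothelial adhesion molecule CD31, was at 134, 81.2, 137 and 38.4 CPM against 72.4, 34.9, 32.04 and 43.9 CPM. In both genes A220 was the single PYY library that did not exceed the highest healthy library. In MetOP saline the same list had a median of -0.02 against healthy bone, and PYY minus MetOP saline had a median of 0.77, with 17 of 19 above 0.

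Nitric oxide and vascular tone genes, a list wider than the nitric oxide synthases that L-NAME blocks, had 21 of 23 members above 0. Their median was 1.04, and 5 of 23 (21.7%, against 4.86% of all genes) lay wholly above healthy bone. Nos3, endothelial nitric oxide synthase, was at 15.6, 11.5, 16.9 and 10.2 CPM with PYY and 5.41, 7.95, 6.44 and 0.948 CPM in healthy bone, with every PYY library higher. Its log2 fold change was 1.38 ± 0.43 (SE; edgeR, adjusted p = 0.203), and MetOP saline was at 10.52 ± 3.49 CPM. The endothelin receptors Ednra and Ednrb averaged 10.4 ± 4.98 against 3.04 ± 0.96 CPM and 3.36 ± 1.98 against 0.672 ± 0.641 CPM. Hypoxia and angiogenic factor genes had a median of 0.69 (11 of 18 above 0); Epas1, the endothelial hypoxia-inducible factor, was at 132, 115, 112 and 83.0 CPM with PYY and 67.8, 44.9, 52.3 and 54.7 CPM in healthy bone.

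Connective tissue genes had the highest list median, 1.58, with 20 of 21 tested members above 0 and none with separate groups. Fbn1, the microfibril protein fibrillin-1, was at 225.8, 31.0, 48.2 and 9.13 CPM with PYY and 20.5, 5.67, 9.90 and 12.7 CPM in healthy bone, so that A215 carried the mean and A220 lay within the healthy range. Its log2 fold change of 2.69 ± 0.63 (SE; edgeR, adjusted p = 0.0983) became 1.36 without A215, and the median of the list became 0.80. Col3a1, the collagen of soft connective tissue and vessels, was at 1602, 696, 393 and 30.4 CPM against 175, 205, 200 and 119 CPM. The skeletal muscle list level of A215, 9.24, was close to those of A219 and A220, and A215 had the highest connective tissue level of all 8 (6.64 mean log2 CPM).

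Of 25 osteoblast and bone matrix genes 22 had a positive log2 fold change, with a median of 0.46, and 1 (4%, against 4.86% of all genes) lay wholly above healthy bone. Col1a1 averaged 1342 ± 1285 CPM with PYY and 1307 ± 1375 CPM in healthy bone, and Bglap, which encodes osteocalcin, 53.2 ± 44.1 against 73.3 ± 41.01 CPM. Sost, the osteocyte inhibitor of bone formation sclerostin, averaged 1.90 ± 1.03 against 2.74 ± 1.82 CPM. Col5a1, a chain of a fibril-regulating collagen, was at 74.0, 31.3, 16.5 and 2.595 CPM against 16.9, 3.34, 4.15 and 2.25 CPM, with overlap. Lox, the collagen crosslinking enzyme lysyl oxidase, was at 5.91, 2.72, 2.34 and 1.72 CPM against 0.427, 0, 0.365 and 0.533 CPM. Every PYY library exceeded every healthy one for Lox, which still did not pass (log2 fold change 3.25 ± 1.51, edgeR, adjusted p = 0.362). The bone list's median was 0.95 without A387 and -0.06 without A216.

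Osteoclast genes, which mark the bone-resorbing cells, had a median of 0.38 with 15 of 20 above 0 and 1 (5%, against 4.86% of all genes) wholly above healthy bone. Acp5, tartrate-resistant acid phosphatase, was at 62.4, 201, 18 and 7.33 CPM with PYY and 173, 31.9, 20.8 and 74.6 CPM in healthy bone, a wide overlap. Ctsk, the collagen-degrading protease cathepsin K, was at 151, 521, 64.3 and 14.4 CPM against 299, 73.5, 42.0 and 98.2 CPM. Nfatc1, the transcription factor that drives osteoclast formation, was the member with separate groups, at 11.5, 15.4, 10.3 and 11.2 CPM with PYY and 5.63, 7.19, 6.16 and 5.63 CPM in healthy bone (log2 fold change 0.97 ± 0.25, SE; edgeR, adjusted p = 0.137). Endothelial cells also express Nfatc1. The osteoclast median was -0.37 without A216, the library with the highest Acp5 and Ctsk.

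Cartilage genes could not be compared. All 18 tested members had a positive log2 fold change with a median of 1.14, yet the median was -2.75 without A216 and 5.64 without A392. Col10a1, the collagen of hypertrophic chondrocytes, was at 0.495, 132, 1.419 and 0.951 CPM with PYY and 0, 0, 1.51 and 21.8 CPM in healthy bone, so 1 library in each group held nearly all of it.

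**Figure D2:**
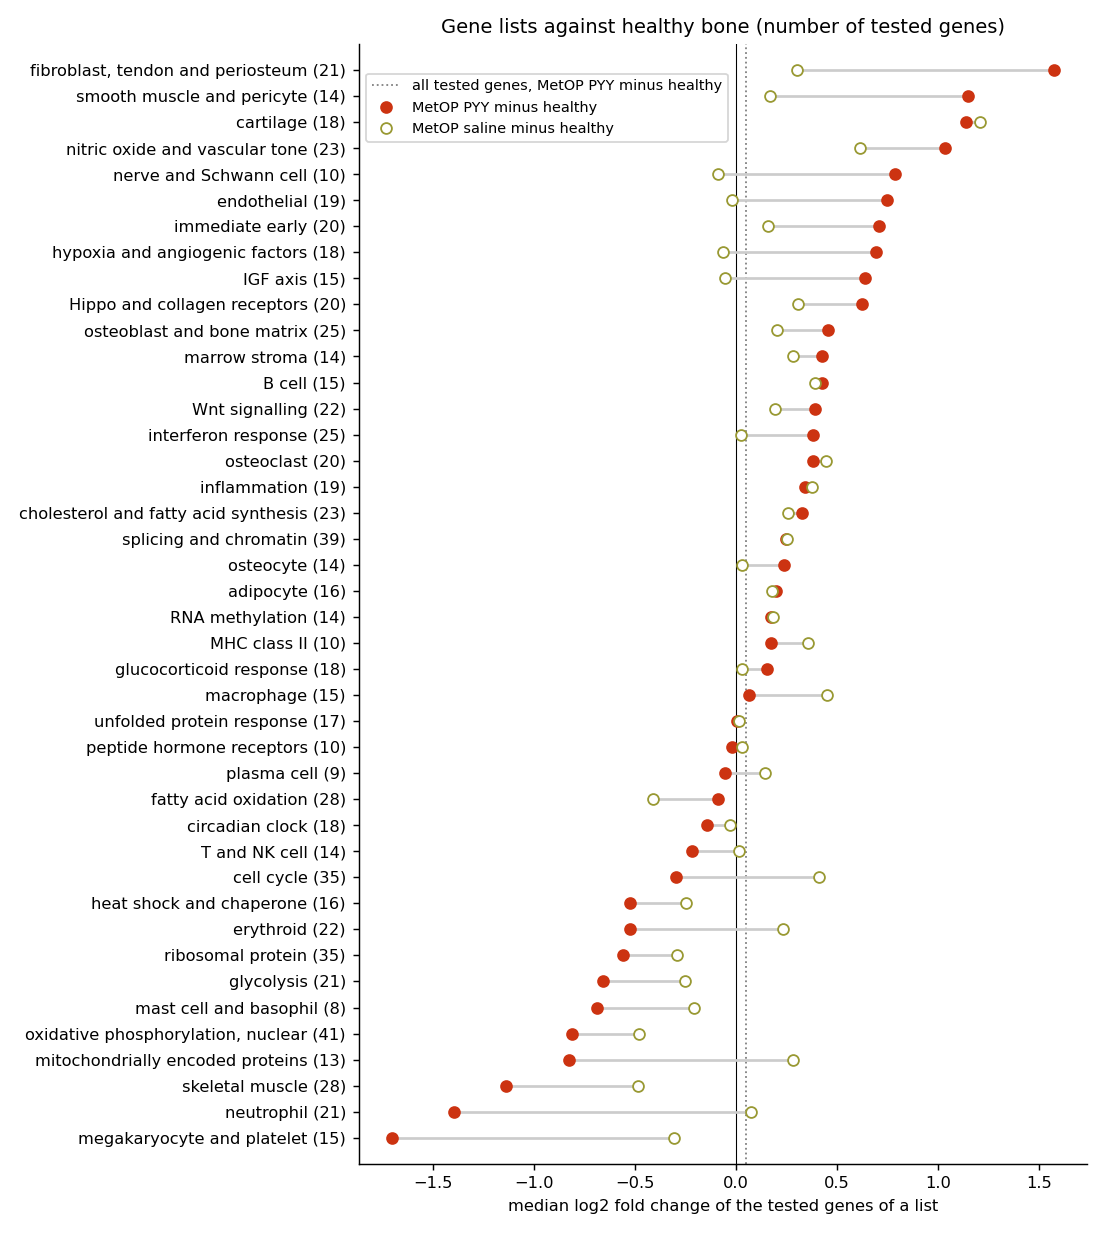
Median log2 fold change of the tested genes of each of 42 lists, for MetOP PYY minus healthy (filled) and MetOP saline minus healthy (open), which share the healthy libraries; the dotted line is the median of all tested genes for PYY. Connective tissue, smooth muscle, cartilage and nitric oxide lists lie above 1 for PYY, and megakaryocyte, neutrophil and skeletal muscle lists below -1.

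Neutrophil, megakaryocyte and erythroid genes had negative medians, while B cell genes had a median of 0.42 (11 of 15 above 0) and macrophage genes 0.06 (8 of 15 above 0). The B cell list level was 0.047, 2.90, 0.395 and -1.74 mean log2 CPM in A215, A216, A219 and A220. Healthy libraries ranged from 0.230 to 1.22, so only A216 lay above them, and the PYY mean (0.40) was below the healthy mean (0.62). All 21 tested neutrophil genes had a negative log2 fold change, with a median of -1.39, and 6 (28.6%, against 3.96% of all genes) did not overlap. RatNP-3b, a neutrophil defensin, was at 6.66, 35.4, 23.9 and 29.9 CPM with PYY and 191, 58.0, 125 and 88.0 CPM in healthy bone (log2 fold change -2.27 ± 0.80, SE; edgeR, adjusted p = 0.251). Camp, the antimicrobial peptide cathelicidin, was at 1.54, 13.5, 6.68 and 8.20 CPM against 46.3, 17.7, 29.4 and 33.1 CPM, and Mpo, the granule enzyme myeloperoxidase, averaged 8.85 ± 6.89 against 31.7 ± 10.999 CPM. A215 had the lowest neutrophil list level, 1.26 mean log2 CPM, and A216, at 3.29, lay above healthy A389 at 3.16. The median against healthy bone was 0.07 in MetOP saline, and PYY minus MetOP saline had a median of -1.30.

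Megakaryocyte and platelet genes had a median of -1.70, with 11 of 15 below 0 and 4 (26.7%, against 3.96% of all genes) wholly below, among them Itga2b, Treml1 and F2rl2. Treml1, a platelet granule receptor, was at 0.116, 1.33, 0.0591 and 0 CPM with PYY and 16.3, 4.32, 4.84 and 4.80 CPM in healthy bone. Its log2 fold change of -4.37 ± 1.23 (SE) did not pass (edgeR, adjusted p = 0.156). Itga2b, the platelet integrin CD41, was at 1.69, 5.75, 2.57 and 4.06 CPM against 12.2, 15.6, 11.2 and 9.89 CPM. The median was -0.91 without A387, the healthy library richest in these genes. All 22 erythroid genes were below 0 with a median of -0.53, but none had separate groups. The haemoglobin genes took 1.52% to 7.55% of non-mitochondrial counts with PYY and 2.89% to 7.21% in healthy bone.

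**Figure D3:**
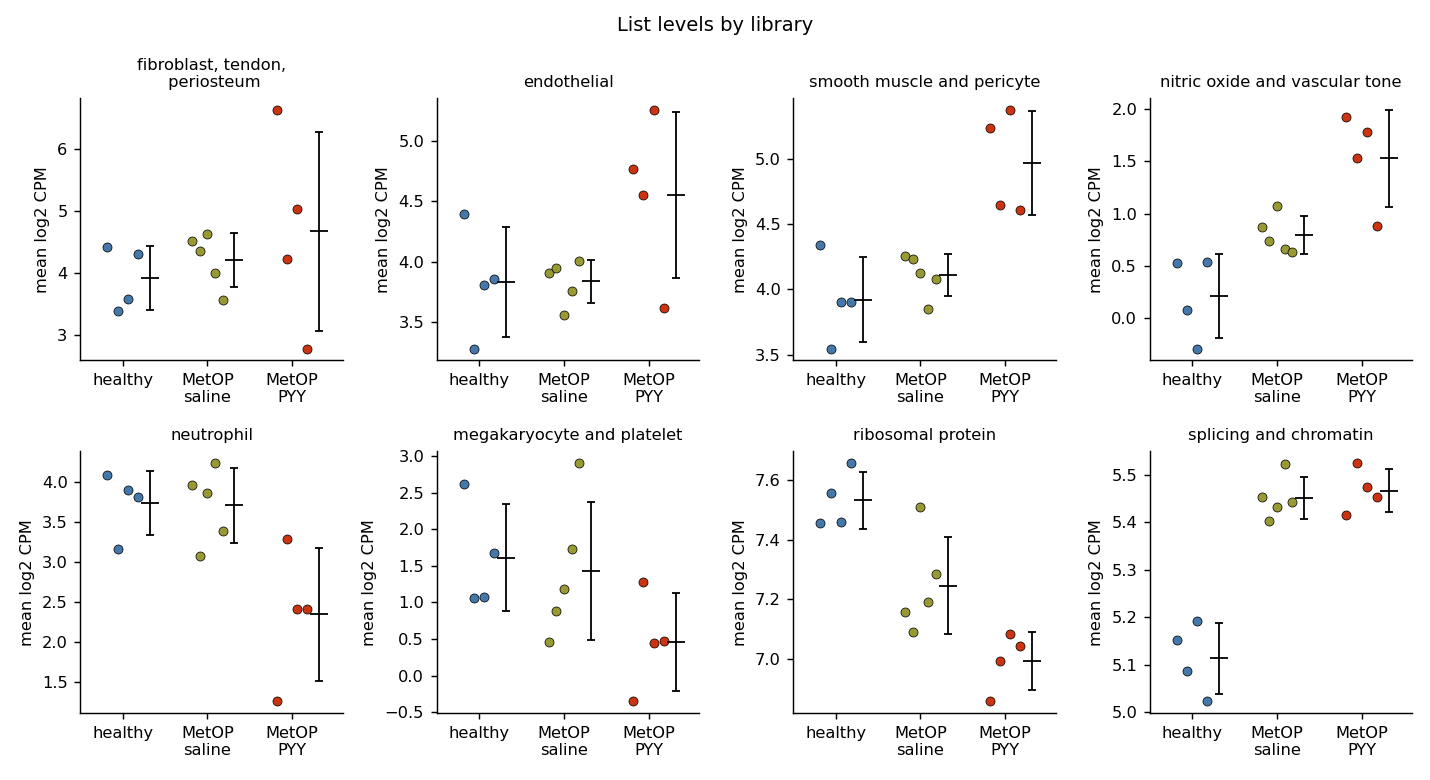
Mean log2 CPM of the tested genes of 8 lists, one point per library, with mean and SD of each group beside the points; the axes do not start at 0. PYY points lie wholly above the healthy points for smooth muscle and pericyte, nitric oxide and vascular tone, and splicing and chromatin, wholly below for ribosomal proteins, and overlap them for the other 4.

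Muscle and energy genes were lower on average but variable. All 28 skeletal muscle genes had a negative log2 fold change, with a median of -1.14, and 1 (3.57%, against 3.96% of all genes) lay wholly below healthy bone. Acta1, skeletal muscle actin, was at 2712, 406, 4909 and 8681 CPM with PYY and 4537, 12170, 7296 and 6936 CPM in healthy bone. Nuclear genes of oxidative phosphorylation had 40 of 41 members below 0, a median of -0.81 and none with separate groups; Ndufb8, a subunit of complex I, averaged 59.3 ± 33.3 against 130 ± 52.3 CPM. Glycolysis genes had 15 of 21 below 0 and a median of -0.66. With the muscle list level as a covariate the medians were 0.13 for oxidative phosphorylation, 1.14 for smooth muscle and pericyte and -0.51 for ribosomal proteins; the muscle list itself cannot be read in that fit, since it forms the covariate.

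Ribosomal protein genes, which encode the structural proteins of the ribosome, were the most uniform lower group. All 35 tested members had a negative log2 fold change with a median of -0.56, 23 had an unadjusted p under 0.05 (4.7% of all genes were lower at that p), and in 31 (88.6%, against 3.96% of all genes) every PYY library was below every healthy one. None passed the adjusted threshold. Rps27 was at 52.1, 59.9, 61.3 and 69.4 CPM with PYY and 113, 114, 109.5 and 108 CPM in healthy bone (log2 fold change -0.87 ± 0.20, SE; edgeR, adjusted p = 0.0973). Rplp2, a protein of the ribosomal stalk, was at 56.2, 67.8, 80.0 and 78.4 CPM against 125, 117, 122 and 131 CPM. MetOP saline lay between the 2 groups, at 78.3 ± 8.82 CPM for Rps27 and 101 ± 18.1 CPM for Rplp2.

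Genes of splicing and chromatin regulation went the other way in 31 of 39 members, with a median of 0.25. In 13 (33.3%, against 4.86% of all genes) the PYY libraries lay wholly above the healthy ones. All lists, this one included, were chosen with earlier results of these data known, so such a share is not independent evidence. Kmt2a, a histone H3 lysine methyltransferase, was at 10.3, 13.1, 11.8 and 7.15 CPM with PYY and 2.67, 3.34, 3.20 and 0.592 CPM in healthy bone (log2 fold change 2.10 ± 0.43, SE; edgeR, adjusted p = 0.0628). Kmt2c, a methyltransferase of enhancers, was at 16.6, 13.4, 14.6 and 17.8 CPM against 4.92, 8.38, 10.9 and 5.81 CPM. Aff1, a scaffold of the super elongation complex, averaged 5.25 ± 1.00 against 1.85 ± 0.64 CPM and 7.18 ± 2.84 CPM in MetOP saline. The list's mean level was 5.47 ± 0.05 log2 CPM with PYY, 5.45 ± 0.04 in MetOP saline and 5.11 ± 0.07 in healthy bone.

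Gene length moved with both of these groups. The median log2 fold change ran from -0.49 in 1057 tested genes under 1 kb, through -0.25, 0.05 and 0.28, to 0.37 in 839 genes over 8 kb. Genes with PYY wholly above healthy had a median annotated length of 4338 bases, those wholly below 1905 and all tested genes 2945. PYY lay wholly above healthy for 8.13% of genes of 4 to 8 kb and 11.2% of those over 8 kb. It lay wholly below for 11.1% of genes under 1 kb and 6.18% of those of 1 to 2 kb. The median length was 5334 bases in the splicing and chromatin list and 1277 in the ribosomal protein list. Within each library, the median level of genes under 1 kb was taken from that of genes over 8 kb, without mitochondrial genes. Each gene's level was relative to its mean over all libraries. The difference was 0.38 ± 0.24 log2 CPM with PYY and -0.38 ± 0.18 in healthy bone (SD, n = 4 each, exact permutation test, two-sided, p = 0.0286, adjusted over 3 measures 0.0429). At 4 M non-mitochondrial counts, 14823 to 15883 genes were counted in the PYY libraries and 13475 to 14421 in the healthy ones (exact permutation test, two-sided, p = 0.0286, adjusted 0.0429). Both p-values are the smallest that 4 against 4 allows before adjustment. An offset for gene length in each library was added after seeing the data. With it, the long-minus-short difference in median log2 fold change went from 0.86 to 0.07. This fall follows from the offset's construction, since it removes the trend with gene length in each library. Without the offset, the difference was 0.40 with no filter on low counts and 0.59 with the muscle covariate. In the fit with the offset, Ddr2 (2.07) and Itpkb (2.22) still passed (edgeR, adjusted p = 0.0247 and 0.0177), and Mga (1.10) did not (edgeR, adjusted p = 0.169). The medians were then -0.35 for ribosomal proteins, 0.10 for splicing and chromatin, 0.95 for smooth muscle and pericyte and 1.30 for connective tissue.

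**Figure D4:**
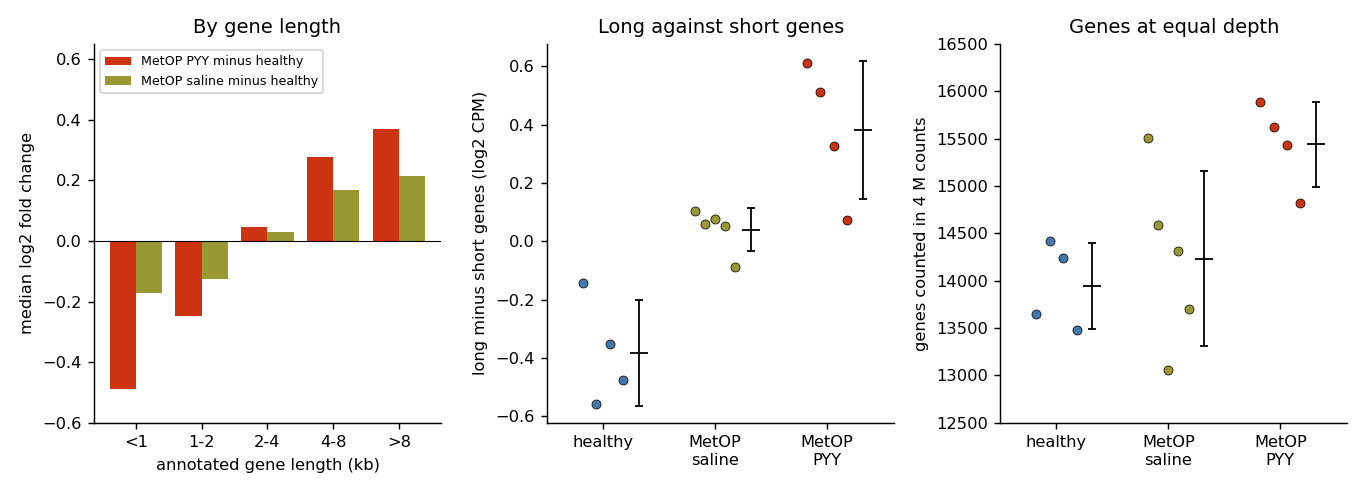
Left, median log2 fold change by annotated gene length for MetOP PYY minus healthy and MetOP saline minus healthy (bars from 0). Middle, median level of genes over 8 kb minus that of genes under 1 kb in each library. Right, genes counted in 4 M non-mitochondrial counts (axis not from 0). Points are libraries with mean and SD beside them; the PYY points lie wholly above the healthy points in both panels.

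In 86 tested genes every PYY library had counts and no healthy library had any, and no gene showed the opposite. In all, 13453 tested genes were counted in all 4 PYY libraries and 11879 in all 4 healthy ones. These counts were taken at unequal depth. Non-mitochondrial counts summed to 6117380 to 16100200 with PYY and to 5598800 to 9372940 in healthy bone. Having no healthy counts, the 86 genes could pass the filter on low counts only through MetOP libraries. These include the PYY libraries in which the genes were counted, so the number of such genes is partly selected by the filter. Ern1, the endoplasmic reticulum stress sensor IRE1, had 79, 16, 21 and 43 counts with PYY, a mean level at least 32.6-fold higher than the floor of 3 counts over the healthy group. In MetOP saline it had counts in only 2 of 5 libraries. The part of depth, of gene length and of the number of genes counted in these results was not tested beyond the values above.

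Genes of Hippo signalling and collagen receptors, the list that includes Ddr2, had 14 of 20 members above 0 and a median of 0.62. Lats1, a Hippo kinase, was at 19.9, 23.3, 11.9 and 16.1 CPM with PYY and 7.62, 6.01, 9.58 and 12.1 CPM in healthy bone, so A219 lay just under A392. Lats2, its paralog, averaged 20.7 ± 5.59 against 12.9 ± 1.53 CPM, and MetOP saline was at 10.99 ± 2.33 CPM. Wnt signalling genes had a median of 0.39, with 16 of 22 above 0; Lrp6, a Wnt coreceptor, was at 6.05, 3.87, 5.11 and 5.39 CPM with PYY and 3.03, 1.06, 1.00 and 1.54 CPM in healthy bone. Insulin-like growth factor genes had a median of 0.64, and Igfbp5, a binding protein abundant in bone, was at 298, 188, 203 and 77.6 CPM against 103, 87.9, 78.8 and 51.2 CPM. Immediate early genes had a median of 0.71 with 7 of 20 higher at an unadjusted p under 0.05 (8.24% of all genes) and 1 of 20 (5%, against 4.86%) wholly above healthy bone; Fosl2, an AP-1 factor active in osteoblasts, was at 13.6, 10.1, 10.4 and 2.87 CPM against 2.32, 0.846, 2.05 and 0 CPM.

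Npy2r, the main receptor of PYY3-36, had 7 counts in A216 and none in the other 7 libraries. Npy5r, the Y5 receptor, had none in all 8, and neither did Glp1r, the receptor of GLP-1. Npy1r, the Y1 receptor, was at 17.6, 1.36, 17.1 and 4.52 CPM with PYY and 1.82, 2.12, 2.47 and 2.61 CPM in healthy bone, so A216 was below the healthy libraries and the other 3 above them (log2 fold change 2.17 ± 0.65, SE; edgeR, adjusted p = 0.18). Npy, the transmitter neuropeptide Y, was at 1.14, 7.15, 7.33 and 4.44 CPM with PYY and 37.7, 8.46, 25.5 and 27.1 CPM in healthy bone, with every PYY library lower (log2 fold change -2.30 ± 0.78, SE; edgeR, adjusted p = 0.231).

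Between PYY and MetOP saline directly, edgeR called no gene at an adjusted p under 0.05, with 529 higher (3.46%) and 211 lower (1.38%) at an unadjusted p under 0.05. Nor did it call any between MetOP saline and healthy bone, with 715 higher (4.68%) and 285 lower (1.87%). The smallest adjusted p among the named genes for PYY against MetOP saline was that of Fbn1 (2.91 ± 0.58 log2, SE; edgeR, adjusted p = 0.396), which rests on A215 as above. A gene called against healthy bone with PYY and not without it is therefore not shown to differ between the MetOP groups.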

How the data were processed

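Polyadenylated RNA of rat femora was sequenced and counted by the authors, who deposited raw counts per Ensembl gene for 30562 genes and 23 libraries. Per the submitters' processing notes, reads were referred to mRatBN7.2 and DESeq2 1.42.0 was among the tools. Which aligner and which counter were run is "not given in the sources used here". Labels describe stranded and unstranded preparation without saying which was used, so overlapping and antisense genes are uncertain. Here edgeR 4.0.16 (R 4.3.3) was fitted to all 23 libraries in 5 groups (TMM scaling, filterByExpr, robust quasi-likelihood test, 15271 genes, Benjamini-Hochberg threshold 0.05). Levels are CPM after TMM scaling, given as mean ± SD; fold changes carry an SE. The gene-wise coefficient of variation had a median of 52.4%, which limits precision. Alternatives used DESeq2 1.42.0, limma 3.58.1, other scalings, filters and libraries, and a gene length offset. Scripts were tested on simulated data. The genes and the 42 lists (880 entries, 857 matched by symbol, 4 by an older symbol, 19 unmatched, 818 tested) were chosen with earlier results of these data known. Named genes were the called ones, the 12 of smallest p and 10 of largest non-overlapping change per direction (mean of at least 5 CPM), 3 per list and a set of anchors; some were left out of the text or are not reported here. FPKM values were not used.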

Additional observations from a re-analysis of the deposited data

Results flagged for a closer look

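In 15 of 284 sets of 4 library values (5.28%), 1 library stood far from the other 3 of its group. The cutoff gives about 1 in 20 sets by chance only for independent, normally distributed values. These sets share libraries and many are linear CPM values, so their chance rate is not known. A216 was lowest for the skeletal muscle list, at 6.48 mean log2 CPM against 9.24 to 9.41 in the other PYY libraries, and for the circadian clock list, at 2.29 against 3.14 to 3.25. It was highest for Col10a1, at 132 CPM, as healthy A392 was in its group at 21.8 CPM. A216 was also highest for Treml1, a platelet gene, at 1.33 CPM, and A387 highest in healthy bone at 16.3 CPM.

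A215 stood above the other PYY libraries for Ddr2 (48.3 CPM against 26.0 to 29.2), for Sulf2, a heparan sulfate sulfatase (41.3 CPM against 2.54 to 5.14), and for Dkk3, a secreted Dickkopf family protein (69.2 CPM against 5.07 to 15.4). Without A215 the log2 fold changes over healthy bone were 2.22 for Ddr2, 1.56 for Sulf2 (3.15 with it) and 0.57 for Dkk3 (1.85 with it).

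Tspo2, an erythroid cholesterol transporter, was at 4.41 CPM in A219 against 0.524 to 0.713 in the other PYY libraries. Foxo1, a factor of the insulin response, was lowest in A220 at 1.47 CPM against 5.19 to 5.27, and highest in healthy A392 at 2.61 CPM against 0.465 to 0.776. Healthy A387 was high for Col5a1 at 16.9 CPM. Healthy A389 was low for Klf6, a stress-induced transcription factor, at 13.5 CPM, and high for Insig1, a sterol sensor, at 8.72 CPM.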

How the results depend on the processing

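No paired analysis was possible because the numbers in the titles are not shared between the groups. The 3 called genes became 14 with RLE scaling, 399 with DESeq2, 1 with limma voom, 0 with only the 8 libraries fitted and 12 without mitochondrial genes; the muscle covariate gave 2 higher (without Mga) and 1 lower; leaving out 1 library gave 2 (without A389 or A392) to 59 (without A220), with 5 without A216 and 11 without A390. With only the 8 libraries, 1064 genes were higher and 669 lower at an unadjusted p under 0.05. Genes lower at an unadjusted p under 0.05 ranged from 324 (without A215) to 1489 (without A220) against 717, with 375 without A216, 469 without A219 and 445 without A389. The mitochondrial share differed by -8.57 (without A389) to 0.29 percentage points (without A392, a reversal). Scaling moved the median of all genes from 0.05 to 0.11 with RLE or DESeq2, and RLE moved the higher against lower genes at an unadjusted p under 0.05 from 1259 and 717 to 1419 and 571.

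Of 95 named genes, 86 kept their sign in all 17 alternatives. The log2 fold change of Acp5 (-0.06) was 0.00068 with RLE, 0.0014 with DESeq2, 0.0728 with the length offset and up to 0.77 (without A387) on leaving out a library (lowest -1.36 without A216). That of Col1a1 (0.04) was -0.33 with limma voom, -1.11 with the muscle covariate, -0.28 with the length offset and -0.70 (without A216) to 1.09 without A387 on leaving out a library. The muscle covariate also reversed Ctsk (-0.81) and Col10a1 (-3.06), and the length offset Bglap (0.0013). Acta1 (0.49), Cav3 (0.0503), Eno3 (0.29) and Tpm1 (0.0138) belong to the list that forms the muscle covariate, so their values in that fit follow from its construction. Without A216 Ctsk was at -0.74 (highest 1.40 without A387) and Col10a1 at -2.58 (highest 6.11 without A392). List medians changed sign in no alternative for 22 of 42 lists. The cause of the other changes was not tested. Genes at or near 0 counts, such as Npy2r, cannot be compared at this depth.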

Other observations

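Cell cycle genes had 27 of 35 tested members below 0 in PYY-treated MetOP femora against healthy bone, with a median log2 fold change of -0.30. Only 1 member (2.86%, against 3.96% of all genes) lay wholly below. In MetOP saline the median against the same healthy libraries was 0.41, with 30 of 35 above 0, and PYY minus MetOP saline had a median of -0.72. Without A215 the PYY median was 0.06. Genes of cholesterol and fatty acid synthesis had 19 of 23 members above 0 and a median of 0.33. Lss, lanosterol synthase, was at 3.06, 6.03, 4.46 and 2.99 CPM with PYY and 0.855, 1.35, 0.730 and 2.19 CPM in healthy bone, with every PYY library higher (log2 fold change 1.69 ± 0.64, SE; edgeR, adjusted p = 0.275). Interferon response genes had 17 of 25 above 0 with a median of 0.38 and none with separate groups, and macrophage genes had a median of 0.06.

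Fto, the RNA demethylase linked to body weight, was at 11.8, 14.1, 8.72 and 11.9 CPM with PYY and 16.7, 17.4, 19.4 and 13.2 CPM in healthy bone, with 1 PYY library above the lowest healthy one. MetOP saline was lower still, at 8.80 ± 2.17 CPM (SD, n = 5). Rn18s, the 18S ribosomal RNA, which has no poly(A) tail as a rule, averaged 99.9 ± 13.8 CPM with PYY, 152 ± 12.7 in healthy bone and 244 ± 69.4 in MetOP saline. By annotation class, 92 tested small nucleolar RNA genes had a median log2 fold change of 0.30, and 120 pseudogenes -0.17.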
